A study of Mus musculus with 7 samples.

Results

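The genes described here build the DNA replication machinery and make its nucleotides: 42 genes, chosen by name, that cover origin licensing, the replicative helicase, the DNA polymerases, the sliding clamp with its loader, the single-strand binding protein RPA, Okazaki fragment maturation, deoxynucleotide synthesis and cyclin E. All 42 have a probe set whose annotation names a single gene, among 18193 genes with such a probe set on the array. Each gene is given by its brightest such probe set, by the mean over 7 arrays. Total RNA came from B cells isolated from mouse spleens with a magnetic kit, 1 array per mouse: 4 wild-type FVB mice (WT) and 3 Eu-miR-155 transgenic FVB mice (TG). The transgene puts the microRNA miR-155 under Eµ, an immunoglobulin heavy chain enhancer that is active in the B lineage. Age and sex are not stated in the labels, which also do not say whether the transgenic mice come from more than a single founder. Values are GCRMA values on a log2 scale, so a difference of 1 is a 2-fold change; values of 4 or less are taken as background. A probe set was tested when it was above 4 on at least 3 of the 7 arrays, which 41 of the 42 genes passed.

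Replication is licensed in G1, when the origin recognition complex, CDC6 and CDT1 load the MCM2-7 helicase onto DNA. Cyclin E kinase and the kinase CDC7 then start S phase: CDC45 and GINS join the helicase, polymerase alpha with its primase lays down primers, and polymerases epsilon and delta extend them on the PCNA clamp. Resting splenic B cells are mostly out of cycle, and many of these genes are known targets of E2F transcription factors, which are held inactive in resting cells and released when cells enter the cycle. Antigen or mitogen is known to drive B cells into S phase, and dividing blood progenitors of other lineages also express these genes.

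Because many of these genes are known E2F targets, the promoter windows of 4 of them are shown for the results that follow. They are the 200 bases before the annotated start, 5′ to 3′, from RefSeq on build GRCm38.p6, with matches to the E2F letters TTTCCCGC, TTTCGCGC, TTTGCCGC or TTTGGCGC, on either strand, in capitals. Mcm6 (chr1:128359706-128359905, minus strand) and Cdc6 (chr11:98907951-98908150, plus strand) were higher in the transgenic arrays and hold a match. Pola1 (chrX:93632156-93632355, minus strand) holds a match and did not pass the test. Rrm2 (chr12:24708054-24708253, plus strand) was higher and holds none of these letters.
Mcm6: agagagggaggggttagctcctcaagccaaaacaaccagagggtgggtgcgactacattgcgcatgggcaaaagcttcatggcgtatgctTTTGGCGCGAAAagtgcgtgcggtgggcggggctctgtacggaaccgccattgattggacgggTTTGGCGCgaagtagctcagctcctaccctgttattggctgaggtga
Cdc6: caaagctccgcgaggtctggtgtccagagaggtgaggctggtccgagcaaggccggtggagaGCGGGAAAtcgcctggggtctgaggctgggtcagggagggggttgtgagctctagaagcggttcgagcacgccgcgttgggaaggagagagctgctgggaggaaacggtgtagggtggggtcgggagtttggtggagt
Pola1: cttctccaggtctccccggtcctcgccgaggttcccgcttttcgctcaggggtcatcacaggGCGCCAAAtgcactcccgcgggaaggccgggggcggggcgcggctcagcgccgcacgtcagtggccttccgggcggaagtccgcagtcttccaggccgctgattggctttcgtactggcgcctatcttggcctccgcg
Rrm2: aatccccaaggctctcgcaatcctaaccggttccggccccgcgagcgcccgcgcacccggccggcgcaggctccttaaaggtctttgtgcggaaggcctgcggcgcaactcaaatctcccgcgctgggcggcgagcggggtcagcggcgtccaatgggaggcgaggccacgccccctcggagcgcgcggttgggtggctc

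In the Mcm6 window 3 matches began 110, 106 and 47 bases before the start, the first pair overlapping on opposite strands. The match of Cdc6 and that of Pola1 each began 138 bases before the start. Over the full table window, 250 bases before to 50 after a start, 33 of the 42 genes had an entry, and 11 of the 33 (33.3%) held an E2F match at any of their starts: Orc1, Cdc6, Cdt1, Mcm3, Mcm5, Mcm6, Mcm7, Pola1, Pold1, Rfc3 and Lig1. The genes with no entry were Ccne2, Gins1, Gins2, Gins4, Gmnn, Mcm4, Pole, Prim2 and Rfc2. The share was 2.60% of all 27025 genes in the table and 5.08% of the 7835 that were also tested on the arrays. The 12 genes that passed as higher and have an entry included 6 with a match, and the other 20 tested genes with an entry included 4. CCAAT, the NF-Y letters, stood in 21 of the 33 windows (63.6%) against 43.2% of tested genes. TTTGAA, the cell cycle homology region of many mitotic genes, stood in 4 (12.1% against 14.2%), and the E-box CACGTG, bound by MYC, in 6 (18.2% against 12.6%). All motifs were searched on both strands, and none of these letters contains another motif. A match is a description of the window, and binding was not measured.

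Part of the replication machinery was higher in transgenic B cell isolates and none of it was lower. Limma put 14 of the 41 tested genes higher at an adjusted p below 0.05, with changes from 0.52 to 3.22 on the log2 scale, and 0 passed as lower; among all 9517 genes tested, 8.11% passed as higher and 2.56% as lower. No member had an unadjusted p under 0.05 in the lower direction. Among the genes above background on a wild-type array, the largest changes were in Cdc6, Rrm2 and Mcm10. The median change of the 41 genes was 0.65, against 0.002 for all genes tested; over all 42, with no filter, it was 0.61, but 0 genes passed there (116 of all genes). For 29 of the 41 every transgenic value was above every wild-type value, which held for 19.5% of all genes tested. Ccne2 and Cdc45 were above 4 on no wild-type array, so they entered the test only through the transgenic arrays and had to differ; without them 12 of 39 genes passed.

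**Figure D1:**
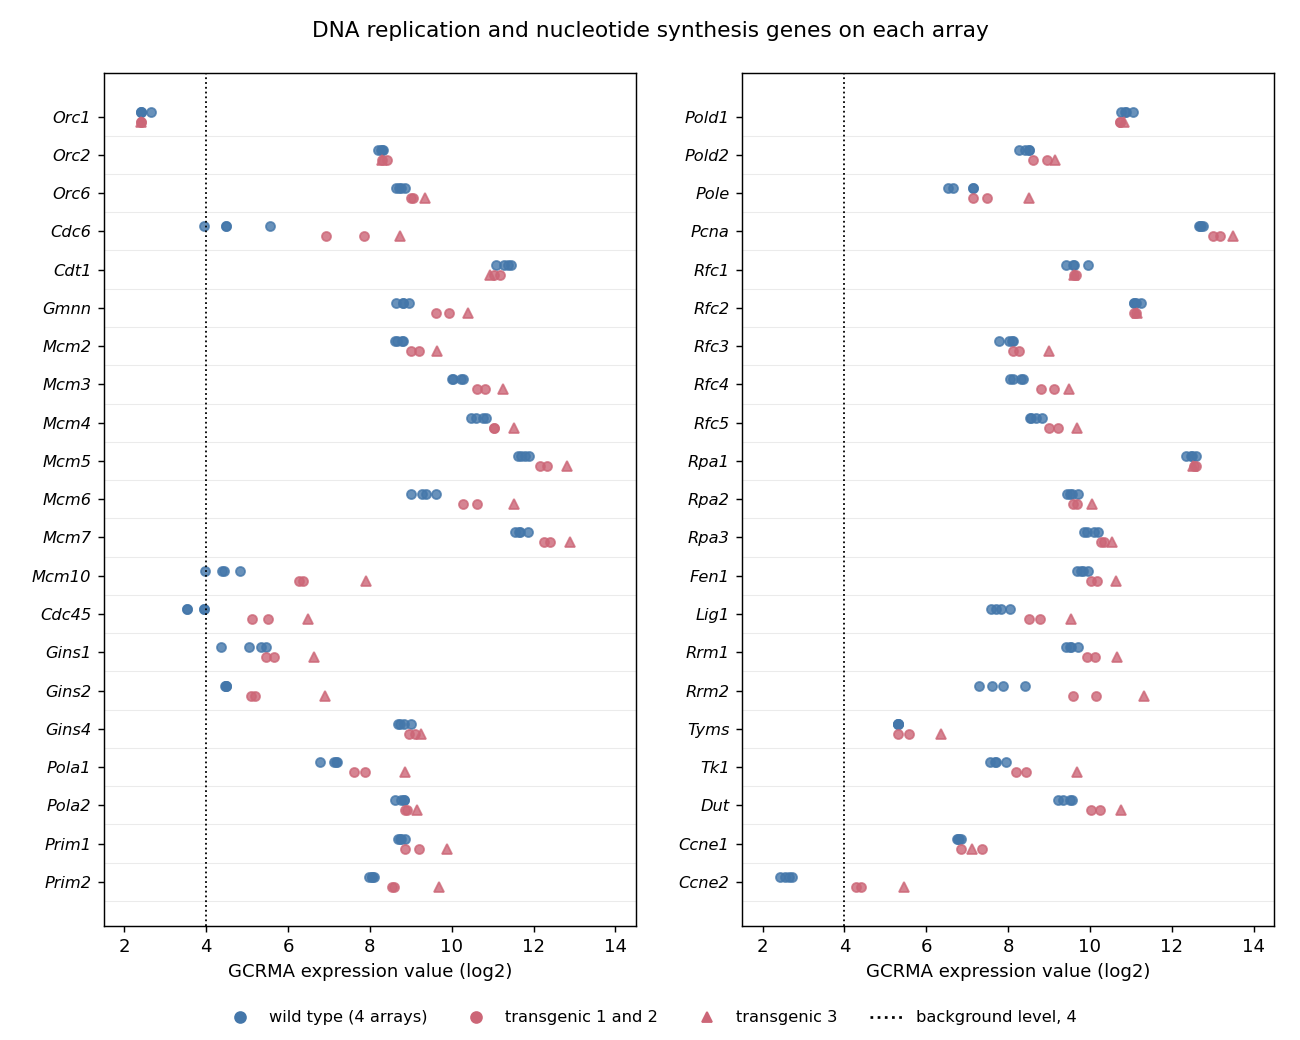
GCRMA log2 values of the 42 genes on each array; blue points are the 4 wild-type arrays, red circles transgenic replicates 1 and 2, red triangles transgenic replicate 3, and the dotted line is the background level of 4. Heights of different genes come from different probes and are not comparable. The groups lie clearly apart for Cdc6, Mcm10 and Rrm2, wild-type values of Cdc45 and Ccne2 are under the dotted line, and the groups overlap for Rfc1, Rfc2 and Rpa1.

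The calls depended on single arrays although the changes did not turn. Without wild-type replicate 2, or without transgenic replicate 2, 0 members passed (smallest adjusted p in limma 0.0573 and 0.0561). Without wild-type replicate 1 there were 4, and without wild-type replicate 3 or 4 there was 1, Ccne2. Without transgenic replicate 1 there were 19 and without transgenic replicate 3 there were 17, the 14 included each time. Among all 9517 genes, 1016 passed with every array and 87 to 1074 in these fits; without transgenic replicate 3 it was 838. In each of these 7 fits the 14 genes kept a positive change.

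Transgenic replicate 3 was the highest of the 3 transgenic arrays for 36 of the 41 genes. Averaged over the 42 genes, wild-type samples ranged from 8.17 to 8.46, and the transgenic samples stood at 8.81, 8.95 and 9.52 in the order of their numbers. With transgenic replicate 3 left out the median change was 0.44. The wild-type arrays also differed among themselves: wild-type replicate 1 was the highest of the 4 for 29 genes and wild-type replicate 3 the lowest for 26. Xist, expressed from the inactive X chromosome, was at 13.79 in wild-type replicate 1, 13.61 in replicate 2, 2.22 in replicate 3 and 2.81 in replicate 4. The Y-linked Eif2s3y was at 9.85 in wild-type replicate 3, 11.10 in replicate 4 and 2.17 in the other 5 samples. All 3 transgenic arrays had Xist at 13.73 to 13.93. The mean of wild-type replicates 1 and 2 was above that of 3 and 4 for 34 of the 41 genes, by a median of 0.15 (0.00 over all genes tested). Against wild-type replicates 1 and 2 alone the median change was 0.54 and 0 passed (12 among all genes). With Xist as a covariate 0 members passed either, at a median change of 0.54.

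The array does not measure mature miR-155, and the probe set of its host transcript Mir155hg overlapped between the groups (5.02 to 6.42 in wild type, 5.33 to 6.04 in transgenic samples), so it does not check the labels. The isolates carried the labelled B cell genes. Most genes of several other lineages were at background on every wild-type array. These were 8 of 11 granulocyte, 9 of 11 erythroid, 7 of 8 T cell and 7 of 8 natural killer cell genes. Of each list 0 to 7 genes were higher in transgenic arrays. Ms4a1, which encodes CD20, was at 14.42 to 14.75 and Cd79a, a B cell receptor subunit, at 14.08 to 14.79 over all 7 arrays. The mean of 13 mature B cell markers was 13.39 to 13.50 in wild type and 12.82 to 13.29 in transgenic arrays, with 2 of 13 lower. Each list mean covers all its genes with a probe set, and each count those tested. Of the 29 markers that passed as higher, 14 were at background on every wild-type array and so were tested only because they are high in transgenic arrays, among them 4 of the 7 granulocyte and all 4 natural killer cell genes; these counts give no support of their own. Granulocyte markers were higher in 7 of 7, with list means of 2.67 to 3.42 in wild type and 7.56 to 8.65 in transgenic arrays. In that list Ltf, Camp, Ngp and Lcn2 were not tested, being above 4 on only 1 or 2 transgenic arrays each. Blood progenitor markers were higher in 5 of 6 (3.64 to 3.86 and 5.28 to 6.50), and erythroid markers in 3 of 5 (3.72 to 3.77 and 4.79 to 6.78), with the globin gene Hba-a1 at the lowest value of 2.17 on all 7 arrays. Natural killer cell markers were higher in 4 of 5 (2.89 to 2.97 and 5.03 to 7.05), dendritic cell markers in 3 of 6 (4.53 to 4.93 and 5.85 to 7.53) and macrophage and monocyte markers in 1 of 4 (3.70 to 4.92 and 4.93 to 6.83). Platelet markers, above background in both groups, were higher in 2 of 6 (6.79 to 8.92 and 10.01 to 11.03). T cell markers were higher in 0 of 2 (2.75 to 2.83), at 3.04 and 3.23 on transgenic replicates 1 and 2 and 8.05 on replicate 3, where Thy1 stood at 10.78 and was at 2.17 elsewhere. Within the B lineage, plasma cell markers were higher in 1 of 7 (8.71 to 8.96 and 9.38 to 10.51), germinal centre markers in 2 of 7 with Bcl6 lower (5.34 to 6.21 and 6.50 to 7.23), and precursor B cell markers in 1 of 2 (3.61 to 3.84 and 3.94 to 5.53), with Cd93 higher by 2.43. In that list Rag2 and Vpreb1 were at 2.17 and Igll1 at 2.94 on all 7 arrays, and Rag1 stayed under 4. On transgenic replicate 3, the array with the high T cell list mean, Dntt was at 10.64 and Il7r at 4.81. Vpreb3 was lowest there, at 7.83, against 9.30 to 9.83 in wild type and 9.61 and 9.79 on the other transgenic arrays. Which cells the Dntt and Il7r signal came from was not tested. The part of these cells in the replication gene changes was not tested, and in bulk RNA more cells in cycle and more RNA per cell cannot be told apart.

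**Figure D2:**
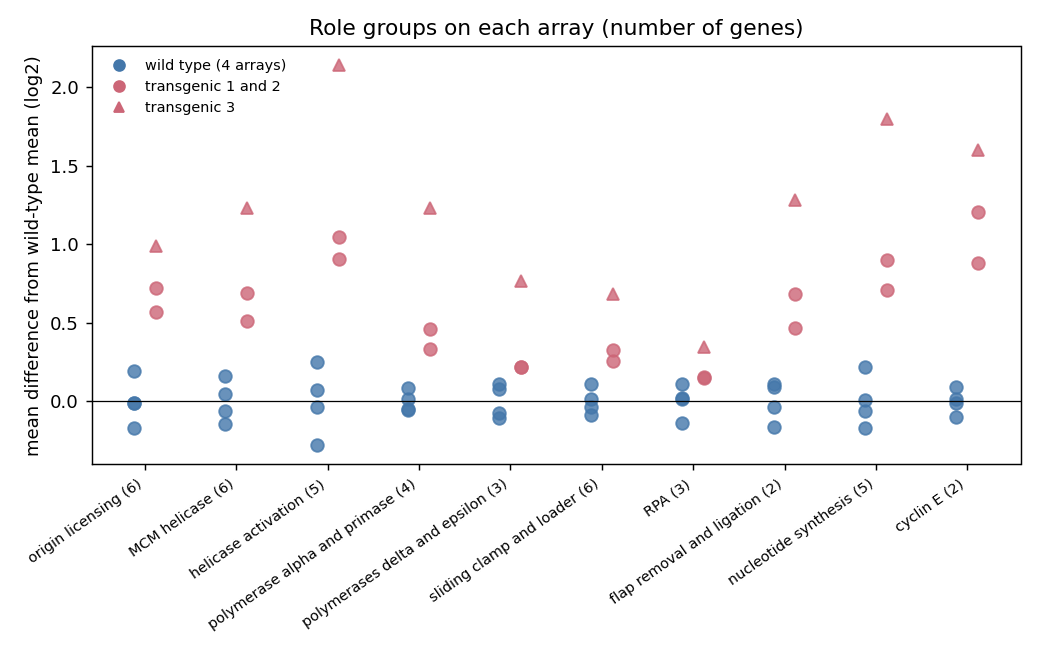
Mean difference of each role group from its wild-type mean (log2), for each array; blue points are wild type, red circles transgenic replicates 1 and 2 and red triangles replicate 3, with the number of genes in parentheses. Helicase activation genes lie at 0.90, 1.05 and 2.14 on the transgenic arrays, cyclin E genes at 0.88, 1.20 and 1.60, and RPA genes at 0.15, 0.15 and 0.35. The helicase activation and cyclin E means include Cdc45 and Ccne2, whose wild-type values are all at background, so their heights are uncertain. With Ccne2 counted from 4, the median change of the cyclin E genes is 0.52, and without this bound it is 1.23.

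Among the origin licensing genes, Cdc6 and Gmnn passed. Cdc6, the ATPase that helps load the helicase and is turned over outside S phase, had wild-type values of 5.55, 4.49, 3.95 and 4.47 and transgenic values of 6.91, 7.85 and 8.73. The lowest transgenic value lay above the highest wild-type value, and the difference of 3.22 ± 0.52 (SE; limma adjusted p = 0.0221), a 9.29-fold change, was the largest among members above background on a wild-type array. Gmnn encodes geminin, which binds CDT1 and blocks reloading of origins after S phase starts. It was at 8.96, 8.80, 8.64 and 8.82 in wild type and 9.62, 9.93 and 10.41 in transgenic arrays, again without overlap, a rise of 1.18 ± 0.18 (adjusted p = 0.0211 in limma). Cdt1 itself, whose protein is controlled mainly by degradation, went from 11.29 ± 0.17 (SD, n = 4) to 11.05 ± 0.13 (SD, n = 3) and did not pass (-0.24 ± 0.11, limma adjusted p = 0.185). The origin recognition subunit genes differed little: Orc6 changed by 0.39 ± 0.10 (adjusted p = 0.0609 in limma) and Orc2 by 0.07 ± 0.06 (0.494). Orc1 was not above background on any array and was not tested; it stood at 2.40 on 6 of the 7 arrays.

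The 6 subunits of the MCM2-7 ring all had positive changes without overlap of the groups, and 4 passed. Over all genes tested, every transgenic value was above every wild-type value for 19.5%, and 8.11% passed as higher. Mcm6 stood at 9.62, 9.37, 9.02 and 9.27 in wild type against 10.26, 10.61 and 11.52 in transgenic arrays, the widest change of the ring at 1.48 ± 0.30 (limma adjusted p = 0.035). Mcm7 was at 11.86, 11.54, 11.66 and 11.67 against 12.25, 12.40 and 12.88, a rise of 0.83 ± 0.16 (limma adjusted p = 0.0303). Mcm3 was at 10.27, 10.22, 10.03 and 10.02 against 10.61, 10.81 and 11.25, a rise of 0.76 ± 0.16 (limma adjusted p = 0.0351). The third transgenic array was the highest for every subunit. Mcm5 was at 11.89, 11.78, 11.62 and 11.69 against 12.17, 12.33 and 12.82, a rise of 0.69 ± 0.16 (limma adjusted p = 0.0447), the nearest to the threshold among the 14 genes. Mcm2 (0.57 ± 0.15, limma adjusted p = 0.0618) and Mcm4 (0.53 ± 0.15, 0.0739) did not pass. The loaded ring holds the 6 proteins in equal number, but whether the changes of its subunits differ from each other was not tested.

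Among the factors that turn the loaded ring into a working helicase, Mcm10 and Cdc45 rose. Mcm10, which is needed to start unwinding, was at 4.81, 4.38, 3.96 and 4.43 in wild type and 6.36, 6.27 and 7.91 in transgenic arrays, a rise of 2.45 ± 0.43 (limma adjusted p = 0.0251). Cdc45, a subunit of the active helicase, was at 3.95, 3.94, 3.52 and 3.52 in wild type and 5.11, 5.50 and 6.49 in transgenic arrays. All 4 wild-type values were at background, so the fold is a bound: at least 3.25-fold higher, from the transgenic mean against 4 (limma adjusted p = 0.0233). The GINS genes, whose products complete the helicase, had positive changes and did not pass: Gins2 1.25 ± 0.43 (limma adjusted p = 0.115), Gins1 0.86 ± 0.37 (0.172) and Gins4 0.29 ± 0.10 (0.124). Gins2 had an identical value, 4.49, on 3 wild-type arrays, and its transgenic values were 5.10, 5.18 and 6.90. It passed without transgenic replicate 3, at a smaller change of 0.66 and with a wild-type SD of 0.009 from these nearly identical values.

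No polymerase or primase gene passed. Pola1, the catalytic subunit of polymerase alpha, was at 7.17, 7.12, 6.77 and 7.20 in wild type and 7.62, 7.87 and 8.86 in transgenic arrays. The groups did not overlap, but the change of 1.05 ± 0.30 missed the threshold (limma adjusted p = 0.0741). Its accessory subunit Pola2 changed by 0.20 ± 0.09 (limma adjusted p = 0.2). The primase genes Prim1 and Prim2, which make the RNA primer, changed by 0.56 ± 0.22 (0.156) and 0.89 ± 0.28 (0.093), with transgenic replicate 3 at 9.88 and 9.68 and the other transgenic arrays at 8.87 and 9.20 and at 8.58 and 8.54. Pole, the leading strand polymerase, changed by 0.84 ± 0.34 (limma adjusted p = 0.159) and by 0.44 without transgenic replicate 3. Of the lagging strand polymerase genes, Pold2 changed by 0.48 ± 0.13 (0.0717) and the catalytic Pold1 by -0.12 ± 0.07 (0.303). Only Pola1 with Pola2 and Prim2 with Prim1 were compared, in pairs picked with the values in view and described below. Whether the other changes differ was not tested.

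Pcna, the sliding clamp, was at 12.66, 12.71, 12.76 and 12.69 in wild type and 13.00, 13.17 and 13.51 in transgenic arrays. The wild-type arrays had an SD of 0.04, and the rise of 0.52 ± 0.11 (limma adjusted p = 0.0411) was the smallest among the genes that passed. Of the 5 subunits of its loader, replication factor C, only Rfc4 passed. Rfc4 was at 8.36, 8.32, 8.05 and 8.13 against 8.82, 9.12 and 9.49, a rise of 0.93 ± 0.17 (limma adjusted p = 0.0262). Rfc5 changed by 0.65 ± 0.16 (0.0566) and Rfc3 by 0.46 ± 0.22 (0.21). Rfc1, the large subunit, and Rfc2 had changes of -0.02 ± 0.13 and -0.02 ± 0.06 (limma adjusted p = 0.943 and 0.877), and their groups overlapped. RPA, which coats single-stranded DNA at the fork and in repair, had no gene that passed: Rpa3 0.36 ± 0.10 (0.0767), Rpa2 0.21 ± 0.12 (0.289) and Rpa1 0.07 ± 0.06 (0.465).

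Of the Okazaki fragment genes, the ligase gene Lig1 rose. It was at 8.04, 7.83, 7.59 and 7.70 in wild type and 8.50, 8.78 and 9.53 in transgenic arrays, without overlap, a rise of 1.15 ± 0.25 (limma adjusted p = 0.039). The flap endonuclease gene Fen1 changed by 0.47 ± 0.15 and did not pass (limma adjusted p = 0.0939).

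In deoxynucleotide synthesis, Rrm2 rose. It encodes the small subunit of ribonucleotide reductase, the enzyme that makes deoxyribonucleotides, and is limited to S phase by transcription and degradation. Its values were 8.41, 7.87, 7.29 and 7.61 in wild type and 9.58, 10.16 and 11.32 in transgenic arrays, a rise of 2.56 ± 0.45 (limma adjusted p = 0.0249) or 5.9-fold. The large subunit gene Rrm1 changed by 0.70 ± 0.17 (limma adjusted p = 0.056). Dut, the dUTPase that keeps uracil out of DNA, was at 9.51, 9.55, 9.23 and 9.35 in wild type and 10.03, 10.25 and 10.75 in transgenic arrays, a rise of 0.93 ± 0.18 (limma adjusted p = 0.0303). The thymidine kinase gene Tk1 changed by 1.04 ± 0.34 (0.106), with transgenic replicate 3 at 9.67 and the other transgenic arrays at 8.20 and 8.43. Tyms, thymidylate synthase, had an identical value, 5.32, on 3 wild-type arrays and transgenic replicate 2, and its change was 0.43 ± 0.23 (limma adjusted p = 0.251).

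Of the cyclin E genes, which drive entry into S phase, only Ccne2 passed. Ccne2 was at 2.71, 2.64, 2.54 and 2.41 in wild type, all at background, and 4.29, 4.41 and 5.45 in transgenic arrays, so it was at least 1.64-fold higher (limma adjusted p = 0.0142). With values under 4 set at 4 it did not pass. Ccne1 was at 6.76 to 6.84 in wild type and 6.84, 7.36 and 7.12 in transgenic arrays, a change of 0.32 ± 0.12 that did not pass (0.148). A dimmer probe set of Ccne1 changed by 0.95 ± 0.27 (limma adjusted p = 0.0749).

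**Figure D3:**
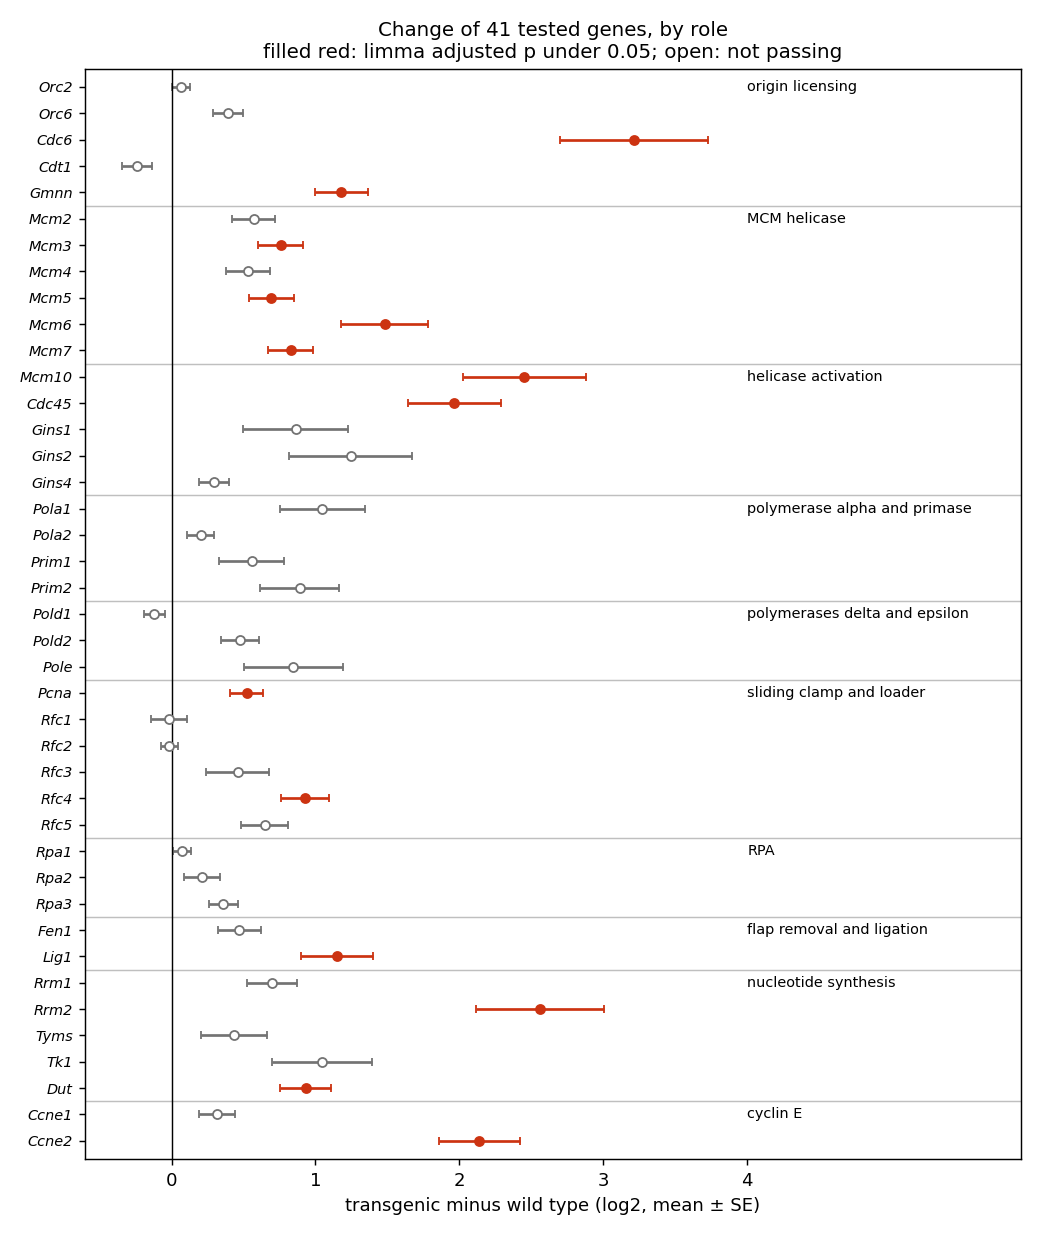
Transgenic minus wild-type change of the 41 tested genes (log2, points with SE bars from limma), in blocks by role; filled red points have an adjusted p under 0.05 and open points do not. The 14 red points run from 0.52 (Pcna) to 3.22 (Cdc6), and the points of Rfc1, Rfc2, Cdt1 and Pold1 lie at or below 0.

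For 5 pairs of genes whose products work together, the difference between partners was taken within each array and compared between the groups, with the pairs chosen when their values were known. The Rrm2 change exceeded that of Rrm1 by 1.86, with array differences of -2.13 to -1.29 in wild type and -0.35 to 0.66 in transgenic arrays. The change of Gmnn exceeded that of Cdt1 by 1.42, that of Pola1 exceeded Pola2's by 0.84 and that of Lig1 exceeded Fen1's by 0.68. In these 4 pairs the array differences did not overlap between the groups. The change of Prim2 exceeded that of Prim1 by 0.33, with overlap. An exact permutation test over the 35 splits of the arrays gave its smallest possible p, 0.0286, for the 4 pairs without overlap. For Prim2 and Prim1 the exact permutation p was 0.0571. As the pairs were picked with these values in view, these p-values give no support, and the differences are a description.

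Other tested probe sets of the same genes gave like values. The members have 90 probe sets, 70 of them tested, and 29 are further tested probe sets of 21 genes. All 29 had the sign of the brightest probe set, and 28 lay within 0.3 of it on the log2 scale. The exception was Ccne1, with a difference of 0.63. Of the 14 genes that passed, 6 have another tested probe set, and for 5 of them another passed too. The further probe sets of Cdc45, Mcm10 and Dut were above 4 on no array and were not tested, so these calls rest on 1 probe set each. The wild-type and transgenic means of these further probe sets were 3.74 and 3.72 for Cdc45 and 3.02 and 3.45 for Dut. For Mcm10 they were 2.17 in both groups. The further Mcm6 probe set changed by 1.53. For 16 of the 41 genes the brightest probe set carries a suffix: 9 have the one that Affymetrix uses for transcripts of the same gene, and 7, Mcm5 and Rrm2 among them, one for probes that other sequences may share. Probe sets with no such suffix changed by 2.62 and 2.50 for Rrm2 and by 0.66 and 0.98 for Mcm3. The tested Mcm5 probe set of this kind changed by 0.70 and did not pass (limma adjusted p = 0.0749). Mcm7, also called from a probe set that other sequences may share, has none without a suffix. Its probe set with the suffix for transcripts of the same gene changed by 0.92 and did not pass (limma adjusted p = 0.0506). The further Mcm7 probe sets of the shared kind changed by 0.67 and 0.90 and passed (limma adjusted p = 0.0484 and 0.0385).

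**Figure D4:**
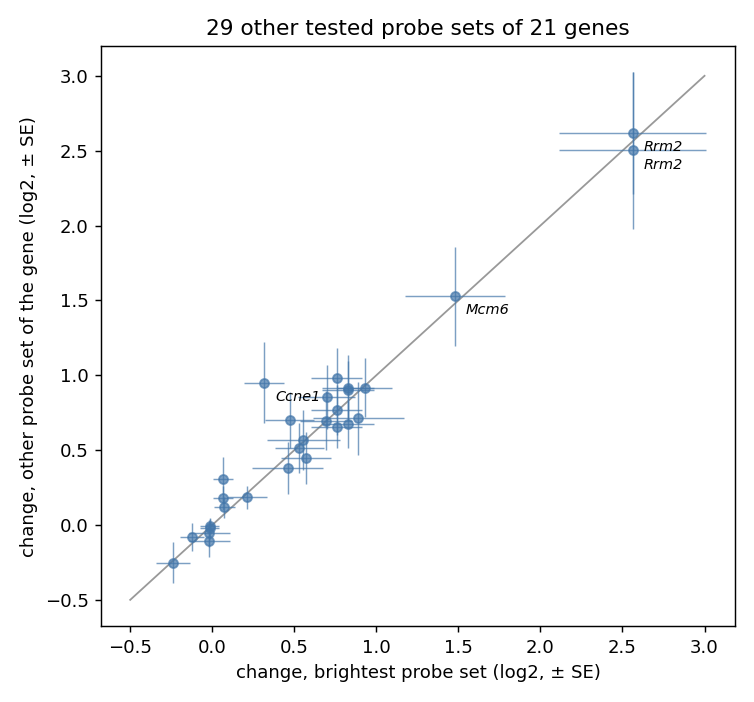
Change of each further tested probe set (vertical, log2, SE bars) against the change of the brightest probe set of the same gene (horizontal, log2, SE bars), for 29 probe sets of 21 genes; the grey line marks equal values. Points lie near the line, and Ccne1 stands off it at 0.32 and 0.95.

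A further list of 75 replication and nucleotide metabolism genes held 72 with a probe set and 70 tested, of which 13 passed as higher (18.6%, against 8.11% of all genes) and 1 as lower, with a median change of 0.23. Without transgenic replicate 3 the count of higher genes was 8, and without wild-type replicate 2 or transgenic replicate 2 it was 1. At the fork, the topoisomerase gene Top2a rose by 2.66 ± 0.58, the checkpoint mediator gene Clspn by 2.46 ± 0.45 and the nuclease-helicase gene Dna2 3.99-fold (adjusted p of 0.0397, 0.0279 and 0.0329 in limma). Top2a was at 7.93, 7.30, 6.15 and 6.79 in wild type and 8.96, 9.29 and 10.87 in transgenic arrays. The RNase H2 genes Rnaseh2b (0.94) and Rnaseh2a (0.36) rose, and Top1 (0.26, limma adjusted p = 0.0511) did not pass. Among chromatin genes, Uhrf1, which guides maintenance DNA methylation, rose by 2.08 ± 0.31 and the histone chaperone gene Asf1b by 1.27 ± 0.20, while Nasp (0.44), Asf1a (0.21) and Chaf1b (1.23) did not pass.

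Of 27 tested genes for other nucleotide steps, 6 rose and 0 fell, with changes mostly under 2-fold. Over all genes tested, 8.11% passed as higher and 2.56% as lower. Mthfd2, the mitochondrial folate enzyme that supplies carbon for purines and thymidylate, was at 7.41, 7.55, 7.69 and 7.46 in wild type and 8.46, 8.55 and 8.85 in transgenic arrays. Its rise of 1.09 ± 0.12 (limma adjusted p = 0.00815) had the smallest adjusted p of the list. Ctps, which makes CTP, rose by 0.56, the purine synthesis genes Ppat and Atic by 0.37 and 0.34, and the serine to glycine enzyme gene Shmt2 by 0.35. Among 12 further origin and helicase genes 0 rose and 1 fell: Mcmbp, which encodes a protein that binds MCM subunits, went from 10.55, 10.81, 10.79 and 10.58 to 10.35, 10.23 and 10.14 (-0.44 ± 0.09, limma adjusted p = 0.035). Dbf4, the activator of the CDC7 kinase, had a change of 0.92 (0.0702), Donson of -0.38, Topbp1 of 0.19 and Wdhd1 of 0.37, none of which passed. In the list of fork protection genes Clspn was the 1 of 8 that passed, and Dscc1 (1.59), Atad5 (1.14), Timeless (0.64) and Rad17 (-0.25) did not.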

How the data were processed

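The 7 arrays were compared as 4 wild-type and 3 transgenic samples. The authors deposited log2 values; per the submitters' processing notes they come from GCRMA, with no version given. GCRMA subtracts background by probe sequence, and 35.5% to 37.0% of values on each array are at its lowest value, 2.17, so changes of dim genes are compressed. Batches were not tested, for want of scan dates. Nothing in the labels says that the mice were raised or processed separately, so p-values measure the spread between these samples only.

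Of 45101 probe sets, 34945 name 1 gene in the platform annotation; 64 controls were left out. The 20994 above 4 on at least 3 arrays were fitted with limma 3.58.1 in R 4.3.3 (lmFit, eBayes with an intensity trend, no covariate), with Benjamini-Hochberg adjustment over all of them at 0.05; the prior degrees of freedom were 1.68. The procedure was tested on simulated data.

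The members, lists, pairs and alternatives were chosen with earlier results of these data known. All 42 members are named, and of each further pathway list the 5 genes of smallest p and any that fell. The 20 alternatives concern the low-value filter, scaling between arrays, limma's trend and weights, the probe set taken, a floor at 4, a replicate block, Xist as covariate and arrays left out.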

Additional observations from a re-analysis of the deposited data

Results flagged for a closer look

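Among the wild-type values of the 42 genes, 3 had a sample far from the others by Dixon's criterion, which chance gives for about 1 in 20 groups. Orc1 was at 2.65 on wild-type replicate 1 and at 2.40 on the other wild-type arrays, all under the background level of 4. Gins2 was at 4.47 on wild-type replicate 3 and at 4.49 on the others. Tyms was at 5.31 on wild-type replicate 4 and at 5.32 on the others. In all 3 genes the remaining wild-type values are identical.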

How the results depend on the processing

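Over 20 alternatives the median change of the members kept its sign, between 0.38 and 0.79, and 0 members passed as lower in any. The 14 genes that passed had a positive change in each. The counts did depend on the setting. Members passing as higher, further pathway genes passing as higher and all genes passing numbered 14, 13 and 1016 as reported. They numbered 0, 1 and 116 with no filter, 28, 34 and 2763 with array weights, 0, 1 and 156 with the Xist covariate, 0, 0 and 12 with wild-type replicates 3 and 4 both left out, and 5, 6 and 408 on dropping TG replicate 3 together with WT replicate 4. Leaving out 1 array at a time gave 0 to 19, 1 to 16 and 87 to 1074. The estimate of the array weights stopped before full convergence. The cause was not tested; fits with arrays left out hold fewer samples. A replicate block, possible only for numbers 1 to 3, gave 0, 0 and 3. Samples of equal number share only a number: their deviations correlated at -0.04, -0.14 and -0.29, and no sample matched its own number best. Sign changes were limited to 3 cases with 1 array left out, in Rfc1 (-0.0943 to 0.0896) and Rfc2 (-0.0372 to 0.0245, at 0.008 without transgenic replicate 2). Under the stricter filter (above 5 on 4 arrays) 37 members were tested and 11 passed, with Ccne2, Cdc45 and Mcm10 lost. Signal over background limits Orc1, Ccne2 and Cdc45. Wild-type replicate 3 was also at background for Cdc6 (3.95) and Mcm10 (3.96). With values under 4 set at 4 their changes were 3.20 and 2.44.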
